A study of Pongo abelii with 8 samples.

Results

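DNA methyltransferases and the proteins that read or repair methylated CpG sites were measured here at 19 probe sets of 9 genes, DNMT1, DNMT3A, DNMT3B, DNMT3L, MBD1, MBD2, MBD3, MBD4 and TDG. A probe set is a group of short probes on the array that is summarized as 1 value. The probe sets were taken by annotation, as every row of the table with exactly 1 gene symbol that is one of these 9, out of 22277 probe sets in all. Of the 9 genes, 4 had 1 probe set (DNMT1, DNMT3A, DNMT3B and DNMT3L) and 5 had several. RNA came from 8 cultures of 2 Sumatran orangutans, KB10460 (a female aged 43 years) and KB10973 (a male aged 29 years), both labelled as healthy controls. Each animal gave 1 culture of dermal fibroblasts and 3 iPSC colonies. The iPSCs had been made from those fibroblasts by retroviral transfer of 4 human factors (OCT4, KLF4, SOX2 and c-MYC), with valproic acid in the early medium, and colonies were picked and grown on mouse feeder cells. Fibroblasts and iPSCs were kept in different media, so cell type and medium cannot be told apart. Colonies of an animal are not independent animals, and a p-value here measures the spread between colonies and cultures.

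Methylation of cytosine in CpG sites is set on new sites by DNMT3A and DNMT3B, with DNMT3L as a cofactor that has no catalytic activity of its own, and is copied to the new strand after replication by DNMT1. The MBD proteins share a methyl-CpG binding domain. MBD2 and MBD3 are alternative subunits of the NuRD repressor complex, MBD1 is a transcriptional repressor, and MBD4 is a DNA glycosylase that removes thymine mispaired with guanine. TDG, a second thymine DNA glycosylase, also removes the oxidized forms of methylcytosine that the TET enzymes make. Pluripotent stem cells are known for high levels of the de novo methyltransferases.

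All values are log2 expression values from RMA on a human array, with array medians between 3.74 and 3.82. Probe sets differ in affinity, so a level is compared between arrays and never between probe sets, and folds are understated where a value sits at the bottom of the scale. In bulk RNA, fewer cells of a type and less RNA per cell cannot be told apart. The fibroblast label was checked with 10 fibroblast markers, of which 9 were lower in the iPSCs. Their mean level was 9.23 and 9.67 in the KB10460 and KB10973 fibroblasts, and 4.43 to 4.89 in the iPSC colonies. THY1, the other marker, was higher in the iPSCs. All 6 measured pluripotency markers were higher in the iPSCs, with a mean level of 8.24 to 8.84 there and of 3.48 and 3.51 in the fibroblasts. Of 10 markers of early differentiation, GATA6, AFP and TBXT were higher in the iPSCs, GATA3 was lower and 6 were not called. GATA6 ranged widely among the colonies (SD 1.38, n = 6). The part of such cells in the results below was not tested.

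The probes of the DNMT3B probe set, 220668_s_at, are shown because this gene had the largest change of the 19 probe sets and because the array was made for human transcripts. The study printed its 11 probes of 25 bases with an alignment of the human and orangutan sequences, and no such alignment of the other genes was used here. All 11 probes lie whole in the upper row of that alignment, and 6 lie whole in the lower row. Its heading calls the upper row orangutan. Yet the upper row is also the sequence printed under the array's name for this probe set. The study describes these alignments as human probe sequences set against orangutan genomic sequences. By that description the lower row, which carries the genomic positions, is the orangutan one, and 5 of the 11 probes differ from it. These 5 probes are given 5′ to 3′, with the bases that differ from the lower row, or are missing from it, in capitals.
Probe 4: gtgacagcagtcagggacagacAta
Probe 5: cagacAtacaTttctcataccttcc
Probe 6: gaaaactgcaaagctcggtgctccC
Probe 7: ctcggtgctccCtttggagattttt
Probe 11: gaCGGAtgcctagagtttaccttat
Of these, probe 4 has 1 substitution and probe 5 has 2, while probes 6, 7 and 11 meet a gap in the lower row. Over the whole alignment, 489 of 505 columns matched. Probes 4 and 5 overlap, as do probes 6 and 7, so their differing bases are not separate counts. All samples were orangutan and were read with the same probes.

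**Figure D1:**
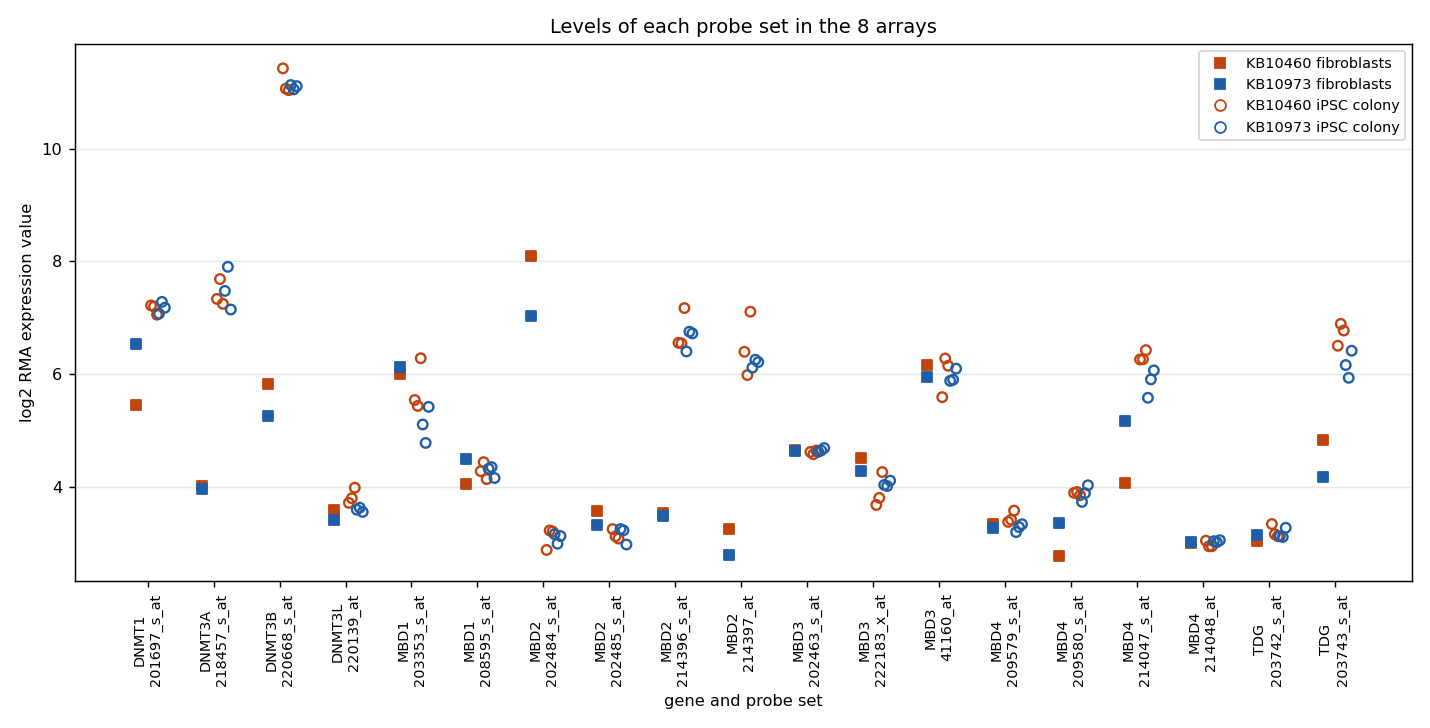
Log2 RMA expression value (vertical axis) of each probe set (horizontal axis) in the 8 arrays, with squares for the fibroblast cultures and open circles for the iPSC colonies (orange for KB10460, blue for KB10973). DNMT3B and DNMT3A have their circles far higher than their squares, and the probe sets of MBD2 run in opposite directions.

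Of the 19 probe sets, 8 were called higher in the iPSCs by limma and 1 was called lower, which leaves 10 without a call, where a call needs a change over 1.5-fold and a Benjamini-Hochberg adjusted p under 0.05. Of all 22277 probe sets, 12.2% were called higher and 9.6% lower. The 8 higher ones make 42.1% of the 19. They belong to 6 genes, DNMT1, DNMT3A, DNMT3B, MBD2, MBD4 and TDG, and the lower one is a further probe set of MBD2. DNMT3L, MBD1 and MBD3 had no call. At 8 probe sets the lowest of the 6 iPSC values exceeded the higher fibroblast value, as 19.8% of all probe sets do, and at 3 the highest iPSC value was under the lower fibroblast value, as 18.2% do. The median log2 fold change was 0.10 over the 19 and -0.01 over all probe sets. Of the 10 without a call, 8 had arrays that overlap between the cell types. After a filter on low values, 4033 of the 7491 probe sets left were called in either direction. The filter kept probe sets that reached a log2 value of 5 in at least 2 arrays. Not all of the 19 passed it. Some, such as DNMT3A and the called MBD2 probe sets, passed only through the cell type where they are high. All that passed were called, 7 higher and 1 lower, except MBD1 203353_s_at and MBD3 41160_at. The share called among them is therefore not compared with that of all probe sets.

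**Figure D2:**
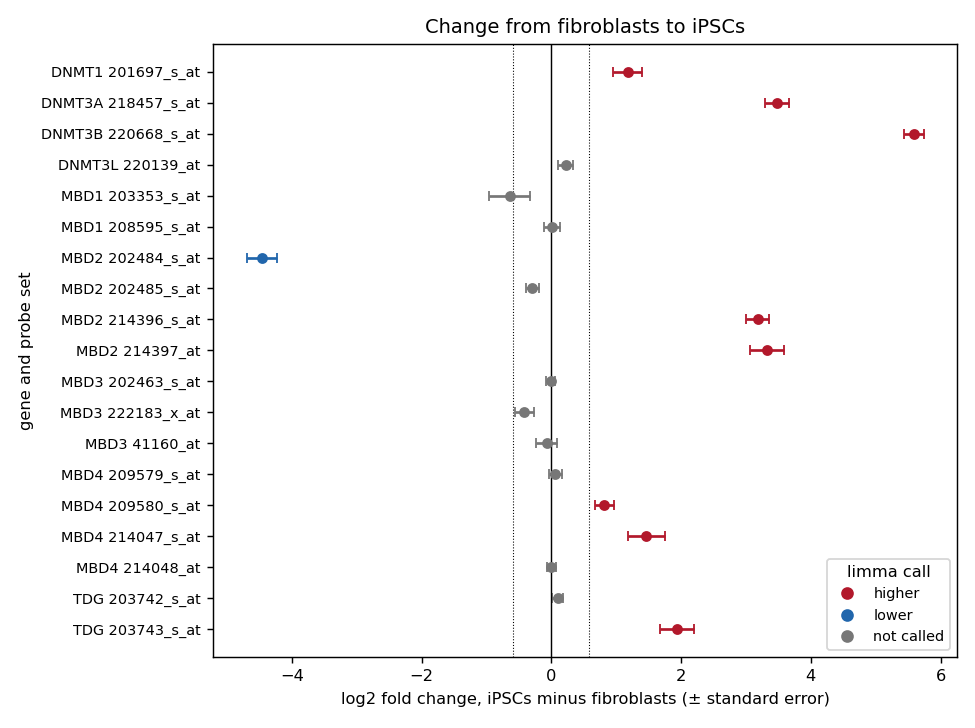
Log2 fold change from fibroblasts to iPSCs (horizontal axis, points with standard error bars) for each probe set (vertical axis), coloured by limma call, with dotted lines at a fold of 1.5 each way. DNMT3B stands at 5.58 and MBD2 202484_s_at at -4.46, and the 10 probe sets without a call lie between -0.64 and 0.22.

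The de novo methyltransferases DNMT3B and DNMT3A rose most among the methyltransferases. DNMT3B was at 5.83 and 5.26 in the KB10460 and KB10973 fibroblasts. Its iPSC levels had a lowest value of 11.04, a median of 11.08 and a highest value of 11.42. The groups lie far apart, and among the colonies KB10460 colony 1 stood above the other 5. This is a 48.0-fold rise in limma (5.58 on the log2 scale with a standard error of 0.15, adjusted p = 1.6e-08). DNMT3A was at 4.02 and 3.97 in the fibroblasts and at a lowest value of 7.15, a median of 7.41 and a highest value of 7.90 in the iPSCs. The 2 fibroblast cultures were alike for DNMT3A, and the colonies spread over more than the 2 cultures did. DNMT3A rose 11.1-fold in limma (3.47 on the log2 scale with a standard error of 0.19, adjusted p = 1.3e-06). DNMT3L, their cofactor, is measured by 220139_at, which was at 3.59 and 3.41 in the fibroblasts and between 3.56 and 3.99 in the iPSCs. The groups overlap, the means lie at percentiles 37.5 and 48.0 of an array in fibroblasts and iPSCs, and the log2 fold change of DNMT3L was 0.22 (standard error 0.12, adjusted p = 0.23 from limma). This probe set thus gave no call in cells where both catalytic partners rose. The study warns that probe mismatches with orangutan transcripts could affect genes that read low in both cell types. Such mismatches were not checked for DNMT3L, so its low values do not show that its RNA was absent.

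DNMT1, the maintenance methyltransferase, was higher in the iPSCs by a smaller amount, and its size depended on the fibroblast culture. DNMT1 was at 5.45 in the KB10460 fibroblasts and at 6.53 in the KB10973 fibroblasts. In the iPSCs it had a lowest value of 7.05, a median of 7.19 and a highest value of 7.28. The colonies were tightly grouped (SD 0.09, n = 6), and the fibroblast cultures differed by 1.08, more than the whole range of the colonies. DNMT1 rose by 1.18 on the log2 scale (standard error 0.23, adjusted p = 0.0034 from limma). Against the KB10973 fibroblasts alone the change was 0.64, and against those of KB10460 alone it was 1.72. With colonies averaged within donor, which leaves 2 samples against 2, the call of DNMT1 ended (adjusted p = 0.14 from limma).

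S phase genes moved with DNMT1 across the fibroblast cultures. The mean level of 13 such genes was 4.78 in the KB10460 fibroblasts, 6.03 in the KB10973 fibroblasts and 7.15 to 7.43 in the colonies. Of the 13, 12 were higher in the KB10973 fibroblasts than in those of KB10460, as were 49.4% of all genes. MKI67 was the exception, at 3.73 in the KB10460 fibroblasts and 3.57 in those of KB10973, and was not called in the iPSCs. PCNA, the replication clamp that binds DNMT1, was at 6.53 and 8.75 in the fibroblasts of KB10460 and KB10973 and at 9.31 ± 0.14 (SD, n = 6) in the iPSCs. Of the 13 genes 11 were called higher in the iPSCs (15.2% of all genes read at 1 probe set) and none was lower, among them the primase subunit PRIM1 (log2 fold change 4.37), the replicative helicase subunits MCM5 (3.41) and MCM3 (2.95), and the polymerase subunit POLA1 (2.47). The part of proliferation in the DNMT1 values was not tested.

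MBD2, the NuRD subunit that reads methylated CpG sites, had calls in opposite directions at its 4 probe sets. Probe set 202484_s_at was at 8.10 and 7.04 in the fibroblasts and at a lowest value of 2.89, a median of 3.15 and a highest value of 3.23 in the iPSCs. No iPSC colony came near the fibroblasts, and the iPSC values fell to about percentile 16.2 of an array. This MBD2 probe set fell by 4.46 on the log2 scale (standard error 0.23, fold 22.1, adjusted p = 9.8e-07 from limma). Probe set 214396_s_at was at 3.54 and 3.48 in the fibroblasts and at a lowest value of 6.40, a median of 6.64 and a highest value of 7.17 in the iPSCs. Probe set 214397_at was at 3.26 and 2.79 in the fibroblasts and at a lowest value of 5.98, a median of 6.24 and a highest value of 7.11 in the iPSCs. Both were high in every colony and low in both fibroblast cultures, at percentiles 38.5 and 12.2 of an array in the fibroblast mean, the reverse of 202484_s_at. They rose by 3.18 (standard error 0.18, fold 9.06, adjusted p = 1.6e-06) and by 3.32 (standard error 0.27, fold 10.0, adjusted p = 1.7e-05) on the log2 scale in limma.

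The fourth MBD2 probe set, 202485_s_at, was at 3.57 and 3.33 in the fibroblasts and between 2.98 and 3.26 in the iPSCs, at percentiles 34.6 and 19.4 of an array in the mean. All colonies lay below both fibroblast cultures, and the log2 fold change was -0.29 (standard error 0.10, adjusted p = 0.064 from limma). The opposite calls held under all 19 alternatives that were run for each probe set: the log2 fold change of 202484_s_at stayed between -4.99 and -3.94, that of 214396_s_at between 3.03 and 3.24, and that of 214397_at between 3.09 and 3.55. MBD2 is known to make transcripts with different 3′ ends, one of which has been described in human pluripotent cells. The sources used here do not place the 4 probe sets on transcripts, so these values show that probe sets annotated to 1 gene changed in opposite directions, and no direction is given for the gene as a whole.

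**Figure D3:**
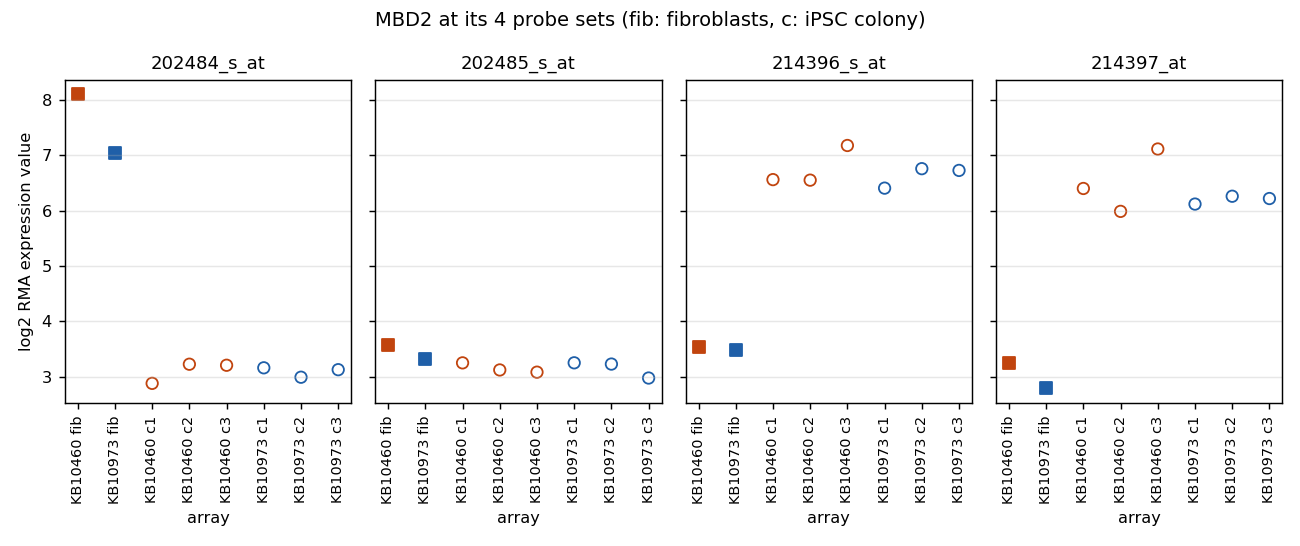
Log2 RMA expression value (vertical axis) of the 4 MBD2 probe sets, 1 panel each, in the 8 arrays (horizontal axis), with squares for fibroblasts and circles for iPSC colonies, coloured by donor as in the other plots (KB10460 in orange, KB10973 in blue). The first panel falls from 8.10 and 7.04 to between 2.89 and 3.23, while both rightmost panels rise from between 2.79 and 3.54 to between 5.98 and 7.17.

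The other binding proteins, MBD1 and MBD3, had no call. MBD1, a repressor, was at 6.002 and 6.14 in the fibroblasts at 203353_s_at, and at a lowest value of 4.78, a median of 5.43 and a highest value of 6.28 in the iPSCs. KB10460 colony 3 lay above both fibroblast cultures and the other 5 colonies lay below them. The log2 fold change was -0.64 (standard error 0.31, adjusted p = 0.18 from limma), and without that colony it was -0.81 and called (adjusted p = 0.018). At the second MBD1 probe set, 208595_s_at, the fibroblasts were at 4.06 and 4.50 and the iPSCs between 4.14 and 4.44. The iPSCs lie between the 2 fibroblast cultures there, and the log2 fold change was 0.01 (standard error 0.13).

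MBD3, which takes the place of MBD2 in NuRD and binds methylated DNA weakly if at all in mammals, had 3 probe sets. Probe set 202463_s_at was at 4.66 and 4.64 in the fibroblasts and between 4.58 and 4.69 in the iPSCs, with a log2 fold change of -0.01 (standard error 0.07). Probe set 41160_at was at 6.16 and 5.96 in the fibroblasts and between 5.59 and 6.28 in the iPSCs, with a log2 fold change of -0.07 (standard error 0.17). Both overlap between the cell types. Probe set 222183_x_at was at 4.52 and 4.29 in the fibroblasts and between 3.68 and 4.27 in the iPSCs, so that all colonies lay below the fibroblasts by a small margin. Its log2 fold change was -0.42 (standard error 0.15, adjusted p = 0.069 from limma). The suffix _x_at marks a probe set that may also bind other transcripts. A fold over 1.5 was not measured for MBD3 at any of them.

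The glycosylases MBD4 and TDG, which remove thymine left by deamination of methylcytosine, were higher in the iPSCs at some of their probe sets. TDG at 203743_s_at was at 4.84 and 4.18 in the fibroblasts and at a lowest value of 5.94, a median of 6.46 and a highest value of 6.89 in the iPSCs. The groups do not overlap, and TDG rose by 1.94 on the log2 scale (standard error 0.26, fold 3.82, adjusted p = 0.00044 from limma). The other TDG probe set, 203742_s_at, was at 3.04 and 3.15 in the fibroblasts and between 3.12 and 3.34 in the iPSCs, with a log2 fold change of 0.10 (standard error 0.09). It lay at percentile 21.8 of an iPSC array on average. TDG is also known to have processed pseudogenes, which the probes may not tell apart.

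Of the 4 MBD4 probe sets 2 were called. MBD4 at 214047_s_at was at 4.08 in the KB10460 fibroblasts and 5.16 in the KB10973 fibroblasts, and at a lowest value of 5.58, a median of 6.16 and a highest value of 6.43 in the iPSCs. It rose by 1.46 on the log2 scale (standard error 0.29, adjusted p = 0.0040 from limma), by 0.92 without the KB10460 fibroblasts and by 2.01 without the KB10973 fibroblasts. At 209580_s_at MBD4 was at 2.77 and 3.37 in the fibroblasts and between 3.74 and 4.03 in the iPSCs, a rise of 0.82 (standard error 0.14, adjusted p = 0.0022 from limma). This probe set lay at percentiles 16.3 and 53.3 of an array in the fibroblast and iPSC means. Its values were low in the fibroblasts and near the array median in the iPSCs. As for DNMT1, the KB10973 fibroblasts were nearer to the iPSCs at both called MBD4 probe sets. Without the KB10460 fibroblasts the change at 209580_s_at was 0.52, under the fold threshold. Both MBD4 calls ended with colonies averaged within donor (adjusted p = 0.10 for 214047_s_at and 0.092 for 209580_s_at from limma). The remaining MBD4 probe sets overlapped between the cell types. Probe set 209579_s_at was at 3.34 and 3.28 in the fibroblasts and between 3.20 and 3.58 in the iPSCs, and 214048_at was at 3.00 and 3.02 in the fibroblasts and between 2.95 and 3.06 in the iPSCs. Their log2 fold changes were 0.06 and 0.00 (standard errors 0.10 and 0.07).

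The change from fibroblast to iPSC was then set side by side for the donors. The fit takes the lone fibroblast array of a donor to vary as much as a colony does, so a difference between the animals and one between 2 single cultures cannot be told apart. The difference of the change was called at 2 of the 19 probe sets, DNMT1 and MBD4 214047_s_at, where 2.91% of all probe sets were called. DNMT1 changed by 1.71 in KB10460 and by 0.65 in KB10973 (KB10973 minus KB10460 -1.06 on the log2 scale, with a standard error of 0.18 and an adjusted p = 0.025 in limma). MBD4 at 214047_s_at changed by 2.24 in KB10460 and by 0.69 in KB10973 (-1.55 with a standard error of 0.26, adjusted p = 0.025 in limma). Both changes were upward in each animal and larger in KB10460, whose fibroblasts had the lower level. The S phase genes ran the same way, with a median change of 2.29 in KB10460 and 1.31 in KB10973. Both calls ended in several alternatives given in the closing section.

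MBD2 at 202484_s_at fell by 4.99 in KB10460 and by 3.94 in KB10973, a difference of 1.04 that was not called (adjusted p = 0.060 from limma). DNMT3B changed by 5.34 and 5.83, DNMT3A by 3.405 and 3.54, MBD2 214396_s_at by 3.21 and 3.14 and TDG 203743_s_at by 1.88 and 1.99 in KB10460 and KB10973. For these 4 the differences lay between -0.07 and 0.49, with standard errors between 0.23 and 0.40, and were not called. An unadjusted p under 0.05 was found at 4 of the 19 and at 15.2% of all probe sets.

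**Figure D4:**
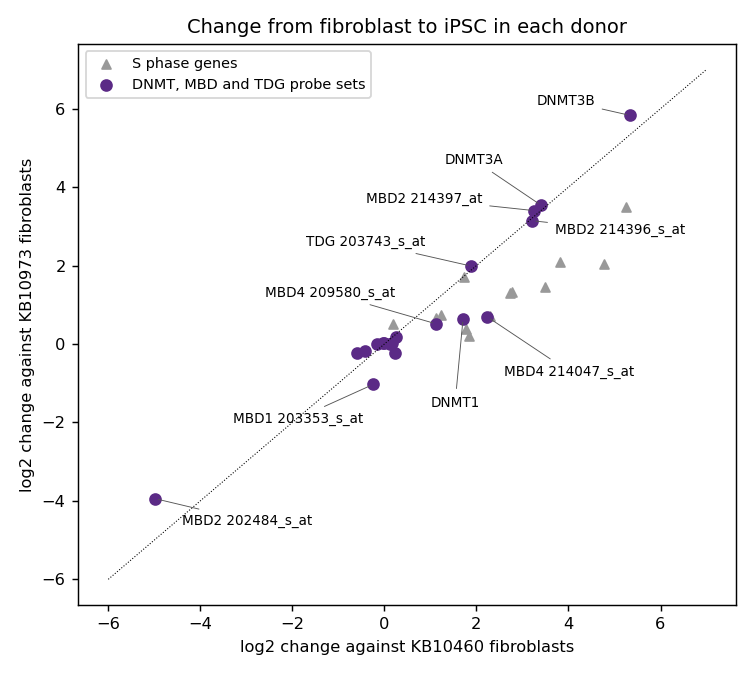
Log2 change from fibroblast to iPSC in KB10460 (horizontal axis) and KB10973 (vertical axis) for the 19 probe sets (circles) and 13 S phase genes (triangles), with a dotted line of equal change. DNMT3B, DNMT3A, TDG and the rising MBD2 probe sets lie near the line, and DNMT1 and MBD4 lie below it, as most triangles do.

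Among the iPSCs, the 3 colonies of KB10973 were compared with the 3 of KB10460. None of the 19 probe sets was called by limma (0 called), where 0.0898% of all probe sets were called. An unadjusted p under 0.05 was found at 4 of the 19 and at 10.2% of all probe sets. The donors' colonies did not overlap at 5 of the 19 probe sets, or 26.3%, against 14.7% of all probe sets. TDG at 203743_s_at was at 6.50, 6.89 and 6.77 in KB10460 colonies 1 to 3 and at 6.16, 5.94 and 6.42 in those of KB10973. The KB10973 colonies were all below those of KB10460, by 0.55 in the mean (standard error 0.15, adjusted p = 0.27 from limma). MBD4 at 214047_s_at differed by -0.46, KB10973 minus KB10460 (standard error 0.13, adjusted p = 0.30), MBD1 at 203353_s_at by -0.65 (standard error 0.24, adjusted p = 0.43) and DNMT3L by -0.24 (standard error 0.09, adjusted p = 0.44) in limma. MBD4 at 209579_s_at differed by -0.18 (adjusted p = 0.54 from limma), and at all 5 the colonies of KB10460 were the higher ones. DNMT3L and MBD4 209579_s_at were low, at percentiles 48.0 and 32.4 of an iPSC array on average. The donor means of DNMT3B, DNMT3A and DNMT1 lay within 0.09 of each other, with standard errors between 0.09 and 0.20. KB10973 colonies 1 and 2 had an r of 0.994 across all probe sets and may not be independent, which was not tested.

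Single colonies stood apart for several of the genes, and the other genes of the same chromosome did so too in some cases. This was noted after the values were seen. Genes were placed by symbol on the chromosomes of the Sumatran orangutan assembly NHGRI_mPonAbe1-v2.0, and each colony was set against the median of the 6 colonies over genes with a mean log2 value over 6, without the 9 genes described here. MBD1 and MBD2 lie on chromosome 17, where the median of 47 genes was 0.32 in KB10460 colony 3 and between -0.08 and 0.01 in the other colonies. In that colony MBD1 203353_s_at was 0.85, MBD2 214396_s_at 0.53 and MBD2 214397_at 0.87 above the median of the colonies, each the highest of the 6. The other 3 probe sets of these genes did not follow, with MBD1 208595_s_at at -0.16 (the lowest of the 6), MBD2 202485_s_at at -0.09 and MBD2 202484_s_at at 0.06 there. Without colony 3 of KB10460, the iPSC levels of MBD2 214397_at lay between 5.98 and 6.40, and its distance from the fibroblast mean was 3.17, so the rise did not rest on this colony.

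TDG lies on chromosome 10, where the median of 176 genes was 0.33 in KB10460 colony 2 and between -0.08 and 0.07 in the others. TDG 203743_s_at was 0.43 above the median of the colonies in that colony, the highest of the 6, and colony 3 of the same donor followed at 0.31. The other TDG probe set, 203742_s_at, was at 0.02 in colony 2 and highest in KB10460 colony 1 (0.20). Without colony 2 of KB10460 the distance of TDG from the fibroblast mean was 1.85. DNMT3A lies on chromosome 12, where the median of 125 genes was 0.35 and 0.40 in KB10973 colonies 1 and 2 and between -0.16 and -0.00 in the others. DNMT3A was highest in KB10973 colony 2 (0.50 above the median of the colonies), then in KB10460 colony 2 (0.28), and KB10973 colony 1 was at 0.07. DNMT3A thus followed its chromosome in only 1 of these 2 colonies, and without both its distance from the fibroblast mean was 3.36. DNMT3B lies on chromosome 21, where the median of 81 genes was 0.11 in KB10460 colony 1. DNMT3B was 0.34 above the median of the colonies there. The X chromosome had the highest median in that colony, at 0.81, and chromosome 21 came next. The study compared DNA of colony 1 of each donor with that of the donor's fibroblasts on SNP arrays. It reported no large copy number change in the iPSCs analysed, and names no such data for the other colonies. The part of a chromosome-wide shift in the levels given here was not tested.

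**Figure D5:**
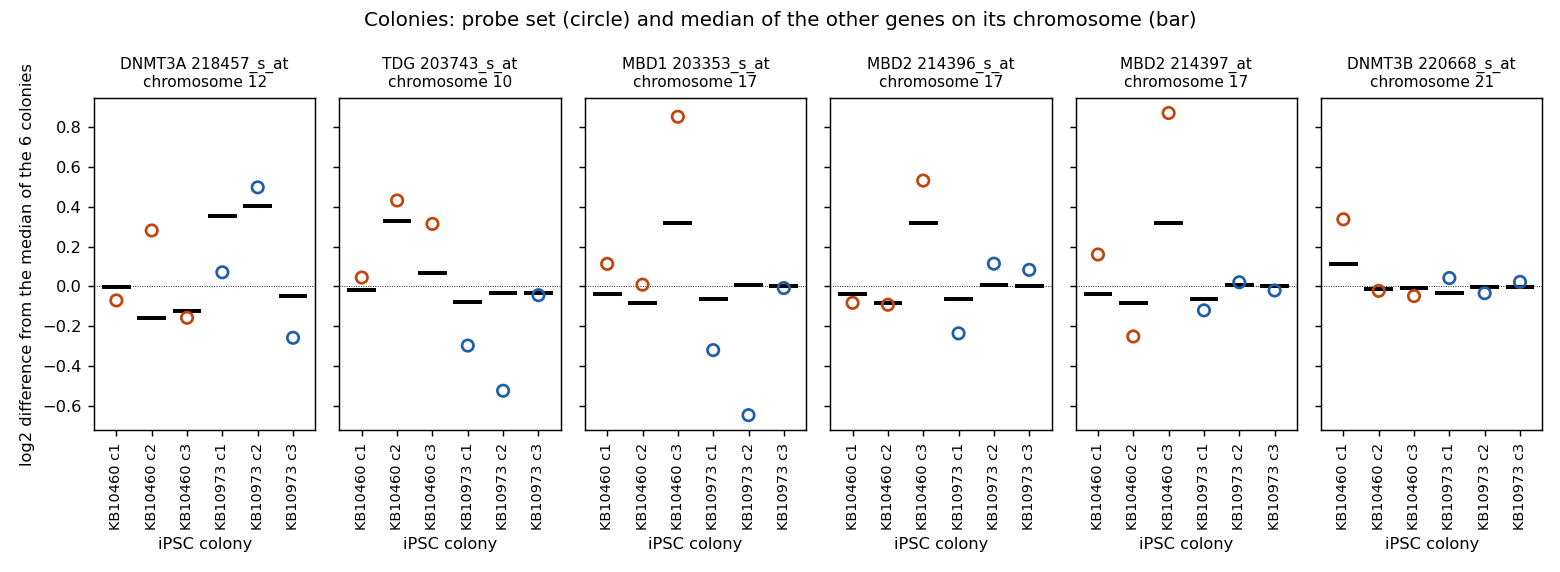
Log2 difference of each iPSC colony (horizontal axis) from the median of the 6 colonies (vertical axis) for 6 probe sets (circles, KB10460 in orange and KB10973 in blue), with a black bar for the median of the other genes on the same orangutan chromosome. KB10460 colony 3 is raised in circle and bar for MBD1 and MBD2, and KB10460 colony 2 for TDG.

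Genes that work with these proteins were read at 1 probe set each, the one with the highest mean. Of 68 genes in 5 lists, 52 were measured, 23 were higher in the iPSCs, 3 were lower and 26 were not called, with a median log2 fold change of 0.39. Over 11963 genes read in the same way, 15.2% were called higher and 11.5% lower, with a median of -0.0039. With cyclic loess between arrays, the 52 genes had 16 higher and 6 lower, so the size of this count depends on the normalization. The lists were chosen with earlier results of these data known.

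Among 8 measured partners of maintenance methylation and silencing, 6 were higher and none was lower. With cyclic loess 4 were higher, as were 4 with colonies averaged within donor. The corepressor TRIM28 rose by 1.81 (standard error 0.34), the remodeller HELLS by 1.74 (standard error 0.15), PCNA by 1.67 (standard error 0.44) and the histone methyltransferase SETDB1 by 1.46 (standard error 0.21) on the log2 scale. HELLS is needed for normal DNA methylation, and was at 3.29 and 3.69 in the fibroblasts and 5.23 ± 0.19 (SD, n = 6) in the iPSCs. UHRF1, which brings DNMT1 to newly replicated DNA, had no probe set with a single symbol and was not analysed here.

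Of 15 measured genes for TET oxidation and base excision repair, the steps that act with TDG and MBD4, 5 were higher and none was lower. With cyclic loess 3 were higher and 1 was lower. The called ones with the largest changes were PARP1 (log2 fold change 1.43), the ligase LIG3 (0.87), the abasic site nuclease APEX1 (0.81) and the scaffold XRCC1 (0.71), all repair genes. TET1, a dioxygenase that oxidizes methylcytosine, was at 2.78 and 2.76 in the fibroblasts and 2.90 ± 0.07 (SD, n = 6) in the iPSCs, at the lower end of the arrays, and was not called. TET3 was not called either. Mismatches between orangutan transcripts and the human probes were not checked for TET1 and TET3.

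Of 9 measured NuRD subunits, 6 were higher (4 with cyclic loess and 3 with a fold over 2) and 1 was lower. The histone binder RBBP4 rose by 1.68 (standard error 0.20), the deacetylases HDAC2 by 1.56 (standard error 0.14) and HDAC1 by 1.07 (standard error 0.10), and GATAD2A, which binds MBD2, by 0.91 (standard error 0.14). The ATPase CHD3 was the lower one (-0.66, standard error 0.14), and the ATPase CHD4 rose by 0.71 (standard error 0.09). The CHD3 call ended without the KB10460 fibroblasts, with the filter on low values, with Benjamini-Yekutieli and with a fold over 2. Of 8 other readers of CpG methylation and related factors, CTCF, an insulator protein that methylation can keep from its sites, rose by 1.92 (standard error 0.18). ZBTB38, a zinc finger protein that binds methylated DNA, fell by 2.29 (standard error 0.37), from 7.04 and 5.18 in the KB10460 and KB10973 fibroblasts to 3.82 ± 0.07 (SD, n = 6) in the iPSCs, a call that ended with colonies averaged within donor. The remaining 6 readers were not called.

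The list on supply of the methyl donor S-adenosylmethionine and clearing of its product had 12 measured genes. Of these, 5 were higher (3 with colonies averaged within donor) and AHCYL1 was lower (-0.62). AHCYL1 was placed on this list, and its part in these steps was not tested. The AHCYL1 call ended with arrayWeights, averaged colonies, median centring, Benjamini-Yekutieli, a fold over 2 and with each of 5 single colonies dropped, and with cyclic loess 3 of the 12 were lower. The folate enzyme MTHFD1 and AHCY, which hydrolyses S-adenosylhomocysteine, each rose by 2.04 on the log2 scale, CBS by 1.85 and SHMT2 by 0.85. The fibroblast levels of MTHFD1 were 4.92 in KB10460 and 7.42 in KB10973, further apart than those of AHCY at 5.07 and 5.79. MAT2A, which makes S-adenosylmethionine, had a log2 fold change of 0.23 with a standard error of 0.59 and no call.

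The genes whose pattern over the 8 arrays was nearest to that of DNMT3B were taken by Euclidean distance after each gene was centred on its own mean. They were POU5F1B (distance 0.66), DLGAP5 (0.72), GPC4 (0.80), JARID2 (0.92) and VAMP8 (0.93). The POU5F1B probe set may also bind POU5F1 transcripts, since the copies are nearly identical. All of them share the step between the cell types. POU5F1B was at 5.19 and 5.37 in the fibroblasts and 10.83 in the mean of the iPSCs, and the Polycomb cofactor JARID2 at 5.57 and 4.95 against 10.16.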

How the data were processed

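Biotin-labelled RNA of 8 cultures was hybridized to Affymetrix human arrays, which are one-colour. The authors made log2 expression values with RMA in WebArray (version not given in the sources used here), and the deposited table holds these log2 values for 22277 probe sets. RMA equalizes the distributions of the arrays, so a shift of most transcripts would be removed. No per-sample column was left over (0). Genes were named from the platform annotation, in which 19070 probe sets have a single symbol, 1043 have several and 2164 lack one.

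Linear models (limma 3.58.1, run in R 4.3.3) were fitted to the deposited values. They compared iPSCs with fibroblasts on 8 arrays without a block and the donors' iPSCs on 6 arrays, and tested whether the change differed between donors with 4 groups. Tests were two-sided, with p-values adjusted over all probe sets. A call needed a fold over 1.5 and an adjusted p under 0.05. The members, gene lists and rule for named genes were chosen with earlier results of these data known. All probe sets of the 9 genes are named, with the 4 called genes of the largest change in each list and the 5 genes nearest to DNMT3B. Scripts were tested on simulated data. Figures and probe comparisons used Python 3.11.15. The fibroblasts and iPSCs of a donor share an animal, which pairs them, although the donor difference of fibroblasts correlated with that of iPSCs at only 0.02 over probe sets. Colony numbers did not pair samples (correlations from -0.05 to 0.06). Array number limits the precision. Alternatives changed the block, moderation, array weights, averaging, normalization, filter, thresholds and probe set per gene, and left out each array.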

Additional observations from a re-analysis of the deposited data

Results flagged for a closer look

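A single colony lay apart from the other 5 at 2 probe sets, by the ratio of the gap to the whole range (above Dixon's critical value for 6 samples, which chance passes in about 1 of 20 groups). DNMT3B had a ratio of 0.76, with KB10460 colony 1 at 11.42 and the others between 11.04 and 11.13. MBD2 214397_at had a ratio of 0.63, with KB10460 colony 3 at 7.11 and the others between 5.98 and 6.40.

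The change from fibroblast to iPSC was called different between donors at 2 probe sets by the interaction in limma, set against the spread of colonies. DNMT1 had a log2 difference of -1.06, KB10973 minus KB10460, and MBD4 214047_s_at had one of -1.55. Each rests on 1 fibroblast array a donor, so a difference between animals and one between single cultures cannot be told apart.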

How the results depend on the processing

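Of the 19 probe sets, 8 were higher in the iPSCs under most alternatives, with 7 under the filter on low values, with a fold over 2 and without the KB10460 fibroblasts, and 5 with colonies averaged within donor. The count of lower ones was 1, and ranged from 1 to 2 when an array was left out (2 without KB10460 colony 3, when MBD1 203353_s_at was called). With the donor as a replicate block the counts were 8 and 1, and this pairing changed no call of the 19. The colony number as a replicate block left 0 called between donors, as did every other alternative. The difference of the change was called lower in KB10973 at 2 probe sets, at 1 with trended and robust eBayes, at 0 with Benjamini-Yekutieli and at 1 to 2 with single colonies dropped. DNMT1 lost this call without KB10460 colony 2 and without KB10973 colony 1 or 3, and MBD4 214047_s_at without KB10460 colony 3 and without KB10973 colony 2. It was called higher in KB10973 at 0, at 1 with arrayWeights and at 0 to 1 with single colonies dropped (the 1 came on dropping KB10460 colony 1), which was MBD2 202484_s_at. The 52 pathway genes had 23 higher, but 13 with a fold over 2. They had 3 lower, but 1 with colonies averaged within donor, 6 with cyclic loess, 1 with a fold over 2, and 1 with Benjamini-Yekutieli, and 2 to 3 when an array was left out.

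Log2 changes of probe sets near 0 turned sign, none of them called. MBD1 208595_s_at was at -0.0048 and MBD4 214048_at at -0.0026 with KB10973 colonies 1 and 2 averaged, and MBD3 202463_s_at at 0.031 with median centring. When an array was left out, MBD1 208595_s_at lay between -0.21 and 0.23, MBD3 41160_at between -0.17 and 0.026, and MBD4 214048_at between -0.0077 and 0.014. The cause of these changes was not tested. The count of 2 fibroblast arrays limits every comparison with them, and leaving out 1 leaves a lone array that is assumed to vary like the colonies.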
